A study of Homo sapiens with 10 samples.

Results

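Passenger strands of miRNA hairpins, which the assay names mark with a star, were followed through RNA pulled down with probes against chosen messenger RNAs. They were taken by name: an assay belonged to the set when its miRNA name, without brackets, ended in a star. That gave 155 starred assays of 745 miRNA assays, 29 of 375 on panel 1 and 126 of 370 on panel 2. The procedure, called miRIP by the submitters, set out to recover the miRNAs bound to a chosen messenger RNA inside living cells.

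There were 5 purifications, each measured on both quantitative PCR panels, which made 10 samples. HepG2, a human liver tumour line, received a control probe, a probe against the mRNA of p21, a cyclin-dependent kinase inhibitor, or a probe against the mRNA of STAT3, a transcription factor activated by cytokines. PC-3, a human prostate cancer line, received the control or the p21 probe. In each group the probe was transfected for 24 hours, and bound RNA was then taken up on streptavidin beads and extracted. Each condition was purified 1 time, and apart from a few assays present on both the panels hold different miRNAs, so no comparison had a replicate purification and no p-value is given. The recovery of the p21 and STAT3 mRNAs was not analysed here, and neither were the probe sequences.

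A miRNA is cut from a hairpin as a short duplex. The strand that stays in Argonaute, the guide, pairs with messenger RNAs through its seed, while the other strand, the passenger, is mostly discarded and so is usually the rarer product. The star marked the rarer strand when a hairpin was first described, and later names give the arm instead. Some passengers are also loaded into Argonaute and repress targets of their own, since their seed differs from that of the guide.

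The let-7d hairpin shows how the strands lie, and it carries the starred miRNA that was measured at the highest level. Both mature strands are in capitals in the hairpin below, the guide let-7d on the 5p arm first and the starred let-7d* on the 3p arm second. The hairpin lies on the plus strand at chr9:94178834-94178920 (RefSeq, GRCh38.p14), within the extents of the non-coding genes MIRLET7A1HG and LINC02603.
let-7d hairpin: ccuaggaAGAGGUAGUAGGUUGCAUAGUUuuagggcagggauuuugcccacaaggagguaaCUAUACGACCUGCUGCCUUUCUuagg

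In the mature sequences that follow, capitals mark the seed, bases 2 to 8 from the 5′ end. Both strands are given for 6 hairpins whose strands are compared at length further on, and the other starred strands are examples named in the comparisons. All are RefSeq sequences (GRCh38.p14).
let-7d*: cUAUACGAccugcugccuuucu
let-7d: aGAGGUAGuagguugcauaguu
miR-26b*: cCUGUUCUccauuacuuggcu
miR-26b: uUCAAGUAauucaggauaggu
miR-378*: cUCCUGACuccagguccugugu
miR-378: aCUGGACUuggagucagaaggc
miR-193b*: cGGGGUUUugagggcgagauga
miR-193b: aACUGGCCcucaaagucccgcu
miR-92b*: aGGGACGGgacgcggugcagug
miR-92b: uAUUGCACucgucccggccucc
miR-126*: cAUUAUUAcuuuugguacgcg
miR-126: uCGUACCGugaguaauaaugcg
miR-93*: aCUGCUGAgcuagcacuucccg
miR-675*: cUGUAUGCccucaccgcuca
miR-34a*: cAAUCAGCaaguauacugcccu
miR-99b*: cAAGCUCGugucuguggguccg

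The measured value is the quantification cycle (Cq), the PCR cycle at which a product is seen, so a lower Cq means more RNA and 1 cycle stands for 1 log2 unit. An assay was called detected at a Cq of at most 35. Reference assays present on both panels put the SD of a Cq at 0.634 cycles (22 pairs) and that of a difference between purifications at 0.692 cycles (17 pairs). These SDs cover the PCR and the offset between panels, not the transfection or the pull-down. They pool miRNA assays with U6, SNORD38B and SNORD49A, and may be too small for miRNA assays alone. All 45 water wells lacked a Cq. The liver miRNA miR-122 had no Cq in any purification. With the HepG2 control, p21 and STAT3 probes, 0, 0 and 4 of 6 liver miRNAs were detected. The same counts were 0, 1 and 4 of 5 epithelial, 5, 5 and 5 of 5 neural and 4, 3 and 3 of 5 blood miRNAs. They were 3, 2 and 3 of 4 muscle miRNAs and 3, 3 and 3 of 4 stromal ones. Of all miRNA assays 16.8%, 28.3% and 34.4% were detected in those purifications.

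Starred strands were scarce, and they became more frequent with the target probes. With the HepG2 control probe 7 of 155 were detected (4.52%), beside 16.8% of all miRNA assays. The p21 probe in HepG2 gave 31 (20%), beside 28.3%, and the STAT3 probe 40 (25.8%), beside 34.4%. In PC-3 only let-7d* was detected with the control probe (0.645%, beside 2.15%), and let-7d* and miR-99b* with the p21 probe (1.29%, beside 7.11%). In each of the 5 purifications the starred share thus lay below that of all assays. The share of all assays detected put the HepG2 purifications in the same order, so that order is not particular to the passengers.

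Most starred assays sit on panel 2, where fewer assays were detected, so shares were also compared within a panel. On panel 1 the numbers of starred assays detected of 29 were 3, 5 and 6 with the HepG2 control, p21 and STAT3 probes, against 105, 123 and 133 of the 346 assays without a star and 28.8%, 34.1% and 37.1% of all panel 1 assays. On panel 2 they were 4, 26 and 34 of 126, against 13, 57 and 83 of 244. The wide gap on panel 1 was thus a narrow one on panel 2: of all panel 2 assays 4.59%, 22.4% and 31.6% were detected in those 3 purifications. In PC-3 the starred counts were 1 of 29 and 0 of 126 with the control, beside 2.13% and 2.16% of all assays on panels 1 and 2, and 1 and 1 with p21, beside 10.1% and 4.05%. Detected starred strands were also near the limit, with a median Cq of 34.76, 34.23 and 34.07 in HepG2 with the control, p21 and STAT3 probes. On panel 2 the starred medians were 34.88, 34.11 and 34.07, beside 33.96, 33.71 and 34.09 for detected assays without a star. On panel 1 they were 33.63, 34.23 and 34.01, beside 33.13, 32.44 and 33.34. With STAT3 the panel 2 medians were thus level, so nearness to the limit is not particular to the passengers there.

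**Figure D1:**
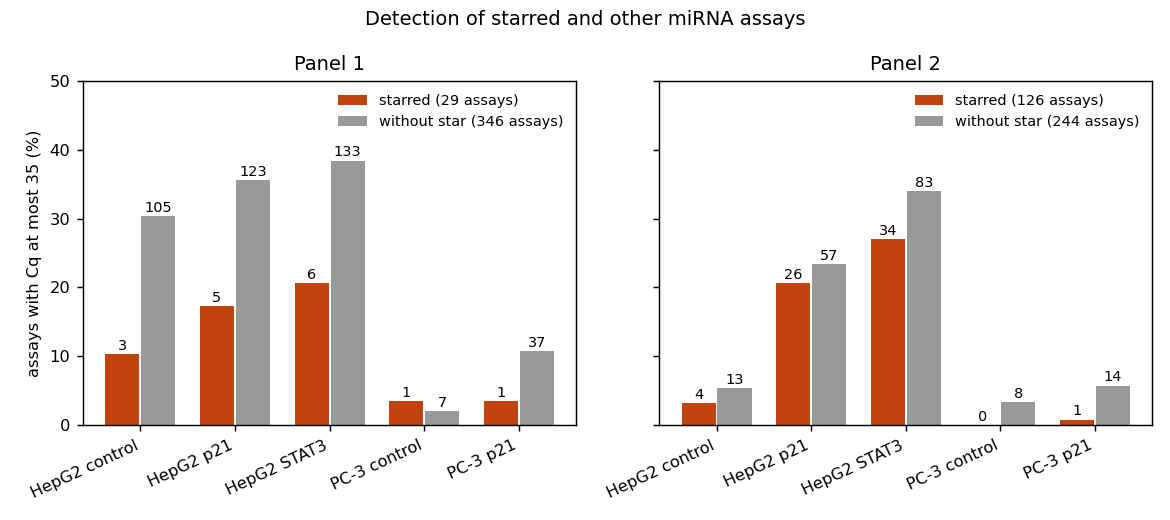
Share of assays detected (Cq of at most 35, percent) in the 5 purifications for starred assays and assays without a star, by panel, with the number detected above each bar. Starred shares on panel 1 stay low, with 3, 5 and 6 of 29 in the HepG2 purifications, while on panel 2 they go from 4 of 126 with the control to 26 with p21 and 34 with STAT3.

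In all, 56 starred strands were detected in at least 1 purification and 99 in none. Of those 99, 66 gave a Cq above the limit somewhere and 33 gave no Cq at all. Detection was mostly in a single purification: 37 were seen in exactly 1, 15 in 2, 3 in 3 (miR-31*, miR-126* and miR-675*) and let-7d* in all 5. Between the HepG2 target probes, 15 were seen with both, 16 with p21 and not STAT3, and 25 with STAT3 and not p21. The 7 seen with the HepG2 control probe were let-7d*, miR-126*, miR-675*, let-7i*, miR-31*, miR-141* and miR-182*, and each was also detected with the p21 probe.

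The limit matters for these counts, because many values lie beside it. In HepG2, 17 of the 31 Cq values with p21 and 22 of the 40 with STAT3 were between 34 and 35, and a further 11 and 28 starred assays had a Cq between 35 and 36. Just inside the limit were let-7i* (34.90) and miR-31* (34.92) with p21, and just outside it miR-708* (35.15) and miR-505* (35.15). With STAT3, miR-19b-2* (34.94) and miR-132* (34.95) were just inside, and miR-15b* (35.01) and miR-185* (35.04) just outside. Those neighbours differ by less than the SD of a Cq.

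let-7d*, the passenger of a let-7 hairpin, was the most abundant starred strand in every purification. Its Cq in HepG2 was 30.14 with the control, 30.67 with p21 and 29.71 with STAT3, and in PC-3 it was 31.31 with the control and 30.24 with p21. The whole range was 1.60 cycles over cell lines and probes. It ranked 5 of 108 assays detected on panel 1 with the HepG2 control, 37 of 128 with p21 and 15 of 139 with STAT3. In PC-3 it ranked 2 of 8 with the control and 5 of 38 with p21. The level of let-7d* was thus similar in all 5, while its rank was lowest with p21 in HepG2.

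Its guide, let-7d, a growth-restraining miRNA, behaved otherwise. The guide had a Cq of 34.48 with the HepG2 control, 29.86 with p21 and 32.51 with STAT3, no Cq with the PC-3 control and 34.86 with p21 in PC-3. In HepG2 the guide spanned 4.61 cycles and the passenger 0.96. The passenger therefore had the lower Cq by 4.34 cycles with the HepG2 control, 2.80 with STAT3 and 4.62 with p21 in PC-3, and the guide was lower by 0.80 with p21 in HepG2. Both assays are on panel 1, but their primers differ, so the difference at a single purification also holds any difference in assay efficiency.

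The change between purifications is free of that constant. From the control to the p21 probe in HepG2, let-7d gained 4.61 cycles and let-7d* fell by 0.53, so the strands moved apart by 5.14 cycles (35.2-fold). From the control to STAT3 they moved apart by 1.53 cycles (2.89-fold), with 1.96 for the guide and 0.43 for the passenger. Between p21 and STAT3 the gap was 3.61 cycles (12.2-fold). The SD for such a difference of differences is 0.979 cycles from the reference assays, so the p21 shift was over 5 times that SD and the STAT3 shift under 2 times. That SD pools U6, SNORD38B and SNORD49A with miRNA assays. For the miRNA reference assays alone the panels disagreed by 0.74 to 2.26 cycles, so the SD may be too small for miRNA assays. The let-7d comparisons share wells and are not independent.

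**Figure D2:**
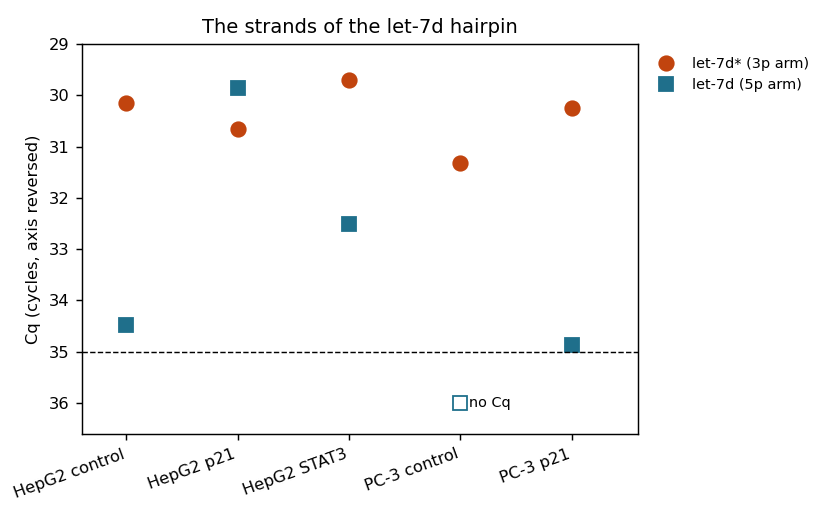
Cq of let-7d* and of its guide let-7d in the 5 purifications (cycles, axis turned so that more RNA is up; 1 well each). The dashed line is the limit of 35 and the open square marks the well with no Cq. The starred strand stays between 29.71 and 31.31, while the guide runs from 29.86 with p21 in HepG2 to no Cq with the PC-3 control.

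The 3 starred strands seen in all HepG2 purifications beside let-7d* were miR-126*, miR-31* and miR-675*, the first and second steady and the last of lower Cq with STAT3. miR-126* comes from an intron of EGFL7 and is known from endothelium. Its Cq was 33.63 with the control, 34.23 with p21 and 33.66 with STAT3, a range below the SD of a Cq. The guide miR-126 moved against the panel medians, from 31.26 with the control to 32.46 with p21 and 32.59 with STAT3. Guide and passenger came from the same hairpin and gave guide minus star values of -2.36, -1.77 and -1.07 cycles in those purifications, the guide lower each time.

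miR-31* was at 34.76, 34.92 and 34.37 with the HepG2 control, p21 and STAT3 probes, all within 0.55 cycles and close to the limit. Its guide miR-31, in contrast, went from 35.20, above the limit, to 30.38 with p21 and 32 with STAT3. Guide minus star was -4.54 cycles with p21 and -2.37 with STAT3. As for let-7d, the guide ranged widely (4.83 cycles) over purifications in which the passenger hardly moved.

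miR-675*, from the H19 long non-coding RNA, was lowest with the control and highest with STAT3. Its Cq was 34.51 with the control, 33.69 with p21 and 32.35 with STAT3, and 38.42 with p21 in PC-3. The gain of 2.16 cycles from control to STAT3 is over 3 times the SD of a difference between purifications. That SD does not cover a shift common to a purification. The median panel 2 assay detected on both sides gained 1.13 cycles, and 1.02 remained for miR-675* after subtracting that median. No assay for its guide under the same name was among the pairs.

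**Figure D3:**
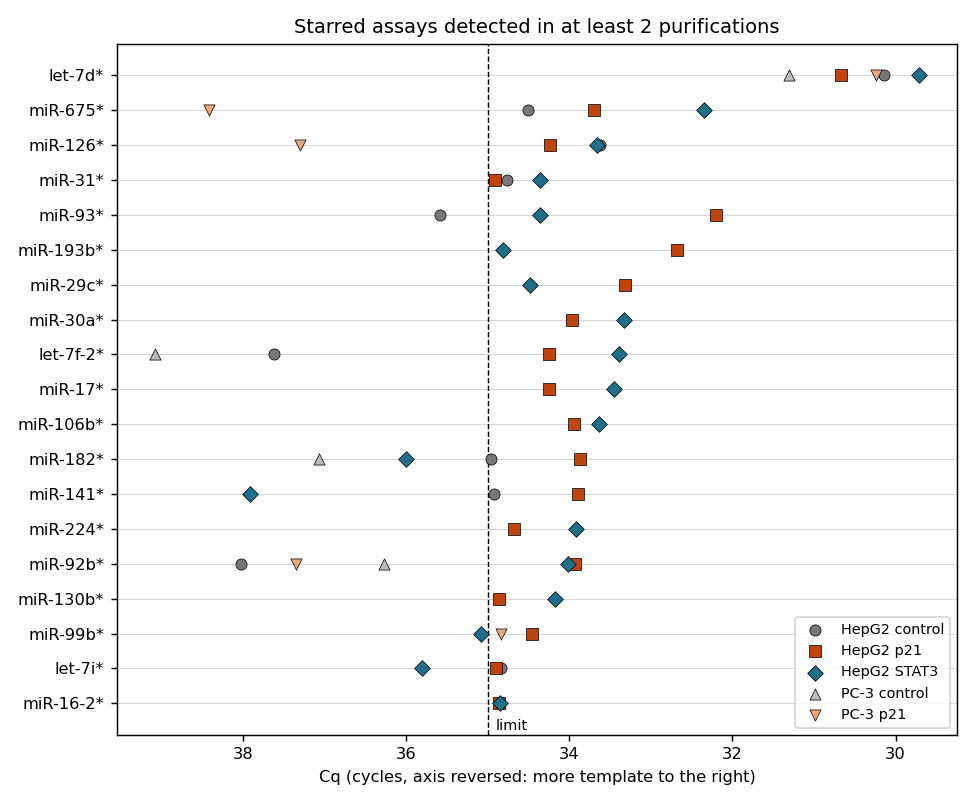
Cq (cycles, axis reversed so that more template is to the right) of the 19 starred assays detected in at least 2 purifications, with the limit of 35 as a dashed line; 1 well per point, and a purification without a Cq has no point. let-7d* lies between 29.71 and 31.31 in all 5 purifications, and the other assays lie at 32.20 (miR-93* with p21) or later.

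To set purifications against each other, the Cq with the control was taken minus the Cq with the target probe. From this the median of the same panel was subtracted, taken over miRNA assays detected on both sides, because assays moved together: for p21 in HepG2 that median was 1.30 cycles on panel 1 and 1.06 on panel 2. A centred value of 1 log2 unit or more, 2-fold, was counted as higher or lower. Where a strand was detected on a single side, the other side was set at the limit, which gives a bound.

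Among the 7 starred strands detected with both p21 and control probes in HepG2, none was 2-fold higher and 4 were 2-fold lower after centring. Of all 103 assays measured on both sides, 37.9% were higher and 36.9% lower. The 4 were miR-126* (-1.91 log2), let-7d* (-1.83), miR-31* (-1.46) and let-7i* (-1.13). miR-675* (-0.24), miR-141* (-0.03) and miR-182* (0.03) lay near 0, the last pair because they set the middle of panel 2. Before centring the 7 had a median difference of -0.07 cycles, and that of the 96 assays without a star was 1.46. The lower calls are therefore strands that stayed level while the panel median moved. Only strands detected with both probes enter, and 24 starred strands detected with p21 only are left out. The median of the 7 thus does not describe the starred strands as a set. Without centring or against the UniSp6 spike-in none of the 4 was 2-fold lower, and against the UniSp3 calibrator let-7d*, miR-126* and miR-31* turned to higher (1.37, 1.30 and 1.74).

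A further 24 starred strands (15.5%) were detected with p21 and not with the control, beside 14.5% of all assays. No starred strand was seen with the control only, beside 2.95%. Such single-sided shares of all assays, here and below, are not matched for panel. On panel 1, 128 of all 375 assays were detected with p21, 108 with the control and 87 with both. On panel 2, which holds most starred assays, the counts were 83, 17 and 16 of 370. Detection with p21 only was thus more frequent on panel 2, and detection with the control only was rarer there. Among the 24, the lowest Cq values with p21 were those of miR-26b* (31.59), miR-93* (32.20), miR-378* (32.26), miR-193b* (32.68) and let-7a-2* (32.99). With the control, miR-93* was at 35.59 and the other 4 had no Cq. With the control at the limit, miR-26b* was at least 5.10-fold higher after centring, miR-93* at least 3.33-fold, miR-378* at least 3.20-fold, miR-193b* at least 2.39-fold and let-7a-2* at least 1.93-fold. In all, 8 of the 24 had a bound above 1-fold and 4 of at least 2-fold, so for the other 16 no fold can be given.

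The leading strands of that group come from well-known hairpins. miR-26b lies within CTDSP1, a phosphatase gene, and miR-93 within MCM7, a DNA replication gene. miR-378 lies within PPARGC1B, a coactivator of mitochondrial genes. The guide miR-26b did not show the gain of its passenger: its Cq was 33.76 with the control, 34.09 with p21 and 34.86 with STAT3. The guide miR-378 was at 34.39, 32.82 and 34.51, and miR-93 at 32.45, 29.85 and 30.79. The guide miR-193b went from 32.06 to 25.35 with p21 and 28.33 with STAT3.

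For STAT3 in HepG2, 4 starred strands were measured on both sides. miR-675* was 2.03-fold higher (1.02 log2), just past the size counted, where 29% of 100 assays were higher. let-7d* (-0.06), miR-31* (-0.10) and miR-126* (-0.52) were not, and none was 2-fold lower, beside 25%. Centring on the reference assays left miR-675* at 0.03, under the size counted, and the UniSp6 spike-in put it at 1.33.

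With STAT3 and not the control 36 starred strands were detected (23.2%), beside 20.9% of all assays. On panel 1, 139 of all 375 assays were detected with STAT3, and 87 of these with the control too. On panel 2 the counts were 117 of 370 and 13, so detection with STAT3 only was more frequent there. An excess of starred strands over the assays of their panels is therefore not shown. Of the 36, those with the lowest Cq were miR-103-2* (33.20), miR-34a* (33.25), miR-424* (33.27), miR-449b* (33.28) and miR-30a* (33.33). miR-34a is a direct target of the tumour suppressor p53, and the miR-449 family shares its guide seed. With the control at the limit, 14 of the 36 had a bound above 1-fold and none reached 2-fold, so these strands were seen at levels close to what the control could have missed. The control probe alone showed miR-141*, miR-182* and let-7i* (3 strands, 1.94%, beside 3.36%), which were at least 2.31-fold, 2.26-fold and 2.46-fold lower with STAT3 after centring. Most of each bound is the panel 2 shift of 1.13 cycles, and uncentred the bounds were 1.05-fold, 1.03-fold and 1.12-fold. Their Cq with the control was 34.92, 34.96 and 34.84, and with STAT3 37.91, 36 and 35.80.

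The target probes were also set against each other in HepG2, where 15 starred strands were measured with both. After centring 3 were higher with p21, beside 29% of 155 assays. They were miR-93* (2.07 log2, Cq 32.20 against 34.35), miR-193b* (2.05, 32.68 against 34.81) and miR-29c* (1.07, 33.32 against 34.48). Lower with p21 were 4, beside 20%: let-7d* (-1.60), miR-675* (-1.42), miR-126* (-1.21) and miR-31* (-1.19). The other 8 lay between -0.94 (let-7f-2*) and 0 (miR-92b*). Uncentred, 4 of the 15 were above 0, against 95 of the 140 assays without a star. These counts are not matched for panel. Of the 15, 12 are on panel 2, where the median shift was 0.08 cycles, against 0.64 on panel 1.

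With p21 and not STAT3 there were 16 starred strands (10.3%), beside 7.52% of all assays, and 15 had a bound above 1-fold. miR-26b* led, at 31.59 with p21 and 36.22 with STAT3, at least 10.0-fold higher. miR-378* was at 32.26 and 35.86, at least 6.30-fold higher. let-7a-2*, at 32.99 with p21, had no Cq with STAT3 and was at least 3.81-fold higher. With STAT3 and not p21 there were 25 (16.1%), beside 13.6%, all with a bound above 1-fold and 12 of at least 2-fold. The shares of all assays are again not matched for panel. These contrasts share the p21 and STAT3 wells with the comparisons against the control. miR-126* and miR-31* were level in Cq in all of them, while let-7d* differed by 0.96 cycles between p21 and STAT3.

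In PC-3 the starred signal was almost wholly let-7d*. Between control and p21 it gained 1.07 cycles, and after centring on the panel's 6 shared assays it stood at -0.82 log2, not 2-fold. Of the 10 assays measured on both sides 20% were higher and 10% lower. miR-99b*, whose host gene extent is that of SPACA6, was detected with p21 only (34.84, at least 1.25-fold), 1 strand (0.645%) beside 5.77% of all assays. None was detected with the control only, beside 0.805%. In HepG2 miR-99b* had no Cq with the control, 34.46 with p21 and 35.08 with STAT3.

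Between the control purifications of the cell lines, let-7d* was 1.17 cycles higher in HepG2 before centring and stood at -0.42 log2 after it. Of 10 assays on both sides 30% were higher and 20% lower in HepG2. The other 6 starred strands of the HepG2 control were not detected in PC-3 (3.87%, beside 15.4% of all assays) and none was seen in PC-3 alone, beside 0.805%. These shares are not matched for panel, and the HepG2 control gave 28.8% of panel 1 assays and 4.59% of panel 2 assays. Only miR-675* of the 6 had a bound above 1-fold (1.06-fold).

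The authors' deposited table gave fold changes for all 155 starred assays. At least 2-fold higher with p21 in HepG2 in the authors' deposited table were 6 starred strands: miR-26b* (8.315), miR-93* (5.428), miR-378* (5.216), miR-193b* (3.898), let-7a-2* (3.15) and miR-29c* (2.503). For STAT3 the authors' deposited table held 2, miR-30c-2* (3.916) and miR-675* (2.518), and for PC-3 none. At least 2-fold lower than the control were 11 starred strands with STAT3 and none with p21 in either line, among them miR-182* (0.275) and let-7i* (0.289), in the authors' deposited table. The others of the 11 were past the limit of 35 with both probes, and each had a later Cq or none with the control. For example, miR-877* (0.387 in the authors' deposited table) had a Cq of 39.35 with the control and 35.54 with STAT3. Most starred values there are constants: 96 of the 155 were 0.565 or 1.402 for STAT3, 124 were 0.782 or 0.849 for p21 in HepG2, and 151 were 1.51 or 0.71 for PC-3, in the authors' deposited table. In the authors' deposited table let-7d* stood at 0.589 with p21 and 1.889 with STAT3 in HepG2, and at 1.491 with p21 in PC-3.

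Each starred strand was then set beside the guide of its own hairpin. An assay of the same name without the star existed for 125 of the 155, 32 of them on the same panel and 93 with the star on panel 2 and the guide on panel 1. Dropping a hairpin number from the name (miR-103-2* to miR-103) added 25 looser pairs, and 5 starred assays had no partner. The value is guide Cq minus star Cq, positive where the passenger had the lower Cq.

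In HepG2 guides were detected more often than passengers, and in most pairs the panels differed too. Of the 125 pairs the guide was detected in 45, 62 and 64 with the control, p21 and STAT3 probes and the star in 6, 26 and 32. In the 32 pairs on a single panel the guide was detected in 7, 15 and 13 and the star in 3, 5 and 6. Across panels, the lower detection on panel 2 and the strand cannot be told apart. In HepG2 both strands of the 125 pairs were detected in 3 pairs with the control, 19 with p21 and 22 with STAT3. The guide alone was detected in 42, 43 and 42 pairs, and the star alone in 3, 7 and 10. The number of hairpins seen by their guide alone was thus nearly constant over the 3 purifications. In PC-3 the counts for both, guide alone and star alone were 0, 1 and 1 with the control and 1, 10 and 1 with p21.

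In HepG2 with the target probes a passenger was detected more often where its guide was. With p21 in HepG2 30.6% of stars were detected where the guide was and 11.1% where it was not, and with STAT3 34.4% and 16.4%. The control shares, 6.67% and 3.75%, rest on 3 of 45 and 3 of 80 pairs. In PC-3 the counts were 0 of 1 and 1 of 124 with the control and 1 of 11 and 1 of 114 with p21. The guide's level within the detected range ordered the stars less: with p21, 4 of 11 stars were detected with a guide Cq of at most 30, 8 of 29 from 30 to 33 and 7 of 22 from 33 to 35. With STAT3 the same counts were 3 of 6, 10 of 26 and 9 of 32. The probe, the panel and the depth of a purification are shared by both strands, and their part in this was not tested.

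Where both strands were detected, the passenger was the scarcer by Cq in most pairs. The median of guide minus star was -2.27 cycles with the control (3 pairs), -0.91 with p21 (19) and -1.20 with STAT3 (22). Only values of at most 35 enter, so pairs with a star past the limit are not in these medians. Both strands had to be at a Cq of at most 35, so wide gaps could appear only with abundant guides. Nothing is read from that. The widest measured gap was that of miR-92b*, from a hairpin on chromosome 1, at 33.93 with p21 beside 25.45 for miR-92b. The difference was -8.48 cycles (358-fold more guide), and with STAT3 miR-92b* was at 34.02 beside 28.66 (41.1-fold). let-7b* was at 34.06 beside 28.36 for let-7b with STAT3 (52.0-fold). With p21 let-7b* was past the limit at 35.33, beside 25.04 for let-7b.

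miR-193b*, from a hairpin on chromosome 16, had 32.68 beside 25.35 with p21 (161-fold more guide) and 34.81 beside 28.33 with STAT3 (89.5-fold). With the control neither miR-92b* nor miR-193b* was detected, and the guides were at 33.16 for miR-92b and 32.06 for miR-193b. From STAT3 to p21 the guide miR-92b gained 3.21 cycles and miR-92b* 0.08, a gap of 3.12 cycles (8.71-fold). For miR-193b the strands moved together, by 2.98 and 2.13 cycles. In both hairpins the guide is on panel 1 and the star on panel 2. The median assay shifted by 0.64 cycles on panel 1 and 0.08 on panel 2, and that panel difference is not removed from these values. The hairpins show where these strands lie, star first and guide second in capitals, both on the plus strand (RefSeq, GRCh38.p14), chr1:155195177-155195272 for miR-92b and chr16:14303967-14304049 for miR-193b.
miR-92b hairpin: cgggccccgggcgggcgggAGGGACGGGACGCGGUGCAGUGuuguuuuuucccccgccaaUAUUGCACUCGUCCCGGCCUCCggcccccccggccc
miR-193b hairpin: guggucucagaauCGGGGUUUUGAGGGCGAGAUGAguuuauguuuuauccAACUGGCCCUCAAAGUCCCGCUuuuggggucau

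The passenger had the lower Cq in 1 pair with the HepG2 control, 4 with p21, 4 with STAT3 and 1 with p21 in PC-3. miR-26b* led apart from let-7d*, at 31.59 beside 34.09 for miR-26b with p21, a gap of 2.50 cycles (5.65-fold more passenger). The others with p21 were miR-182* (0.64 cycles), miR-378* (0.56) and miR-30a* (0.005). With STAT3 they were let-7d* (2.80), miR-34a* (0.80), miR-194* (0.20) and miR-214* (0.02). Except for let-7d* and miR-26b*, each of these lies within the 0.897 cycles expected as the SD of a difference between assays.

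Most pairs straddle the panels, and the plates of a purification were not level. The UniSp6 spike-in had a higher Cq on panel 1 than on panel 2 by 0.69, 0.81 and 2.01 cycles in HepG2 with the control, p21 and STAT3 probes, and the 6 reference assays of the STAT3 purification by a mean of 1.09 ± 0.40 (SD). After subtracting UniSp6 of its own panel, miR-26b* with p21 kept a gap of 1.69 cycles and was the only p21 pair with more passenger, and let-7d* was the only such STAT3 pair. let-7d* does not depend on this, since both of its assays are on panel 1. Within panels alone, the star had the lower Cq in 1 of 2 pairs with the control, 0 of 4 with p21 and 1 of 5 with STAT3, let-7d* each time.

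The hairpin of miR-26b is shown because its passenger exceeded its guide with p21 in HepG2, by assays on different panels. In the other HepG2 purifications the guide alone was detected: 33.76 with the control, where the star had no Cq, and 34.86 beside 36.22 with STAT3. The hairpin lies on the plus strand at chr2:218402646-218402722 (RefSeq, GRCh38.p14) within CTDSP1. The guide is the first run of capitals and miR-26b* the second.
miR-26b hairpin: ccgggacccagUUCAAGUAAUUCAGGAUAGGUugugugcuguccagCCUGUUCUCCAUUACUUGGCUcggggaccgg

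Of the 46 paired stars detected in at least 1 purification, 8 had a same-name guide that was detected in none. These were miR-373*, miR-200b*, miR-449b*, miR-106b*, miR-130b*, miR-488*, miR-33b* and miR-550a*. miR-106b*, from the MCM7 intron, was at 33.94 with p21 and 33.64 with STAT3, and miR-106b at 35.78 and 35.12. miR-130b* was at 34.87 and 34.17, beside 35.38 and 35.83 for its guide. In both hairpins the guide fell just past the limit. Both pairs straddle the panels.

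Of 20 paired stars detected with p21 and not the control, the guide was detected on both sides for 10, with p21 only for 4 and not with p21 for 6. Of 29 paired stars for STAT3 the counts were 11, 8 and 10. The guide thus crossed the limit with its passenger in 4 of 20 and 8 of 29 pairs, where 14.5% and 20.9% of all assays were detected on the target side only. Nothing is read from these counts.

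Of 9 let-7 stars 7 were detected somewhere, beside 56 of all 155: 2 with the HepG2 control, 4 with p21 and 5 with STAT3, and let-7d* in PC-3. let-7a* had a Cq of 39.68, 36.77 and 33.61 with the HepG2 control, p21 and STAT3 probes, and let-7b* 39.71, 35.33 and 34.06. let-7c* was at 39.73, no Cq and 34.36, and let-7f-2* at 37.62, 34.25 and 33.39. let-7a*, let-7b* and let-7f-1* share the seed UAUACAA, from which that of let-7d* differs. let-7a* and let-7b* were detected with STAT3 only, and let-7f-1* in no purification (35.35 with STAT3). let-7a-2* and let-7g* share another seed, UGUACAG. let-7a-2* was detected with p21 only, and let-7g* had no Cq in any purification.
let-7a*: cUAUACAAucuacugucuuuc
let-7b*: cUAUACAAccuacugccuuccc
let-7c*: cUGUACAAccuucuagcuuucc
let-7a-2*: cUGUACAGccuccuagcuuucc

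The stars of miR-17, miR-18, miR-20, miR-93 and miR-106 were counted as 1 group, and some of their guides are reported regulators of p21. Of these 8 stars none was detected with the control, 3 with p21 and 4 with STAT3, miR-18a* among the last. Over all 155 starred assays the shares were 4.52%, 20% and 25.8%, and with 8 members nothing particular to the group is read from these counts. The cluster of miR-106b, miR-93 and miR-25 within MCM7 on chromosome 7 had all 3 stars detected with p21: miR-93* at 32.20, miR-106b* at 33.94 and miR-25* at 34.39. With STAT3, miR-93* was at 34.35, miR-106b* at 33.64 and miR-25* at 36.79, past the limit. The 3 strands of the cluster thus did not share an order between the probes. The related cluster of miR-17 on chromosome 13 had 1 of 5 stars detected with p21 (miR-17*, 34.25) and 2 with STAT3 (miR-17*, 33.45, and miR-18a*, 34.89).

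Of 24 groups of neighbouring hairpins with more than 1 star, at least 2 stars were detected in 2 groups with p21 and 6 with STAT3, and exactly 1 in 9 and 8. The single let-7a* assay counts in both let-7 groups among the 6, on chromosomes 9 and 22. Of all starred assays 20% and 25.8% were detected with p21 and STAT3, and nothing is read from the group counts. The following pairs were picked after their values were seen. miR-15b* and miR-16-2*, side by side within SMC4, were at 34.78 and 34.86 with p21, and at 35.01, past the limit, and 34.85 with STAT3. miR-192* and miR-194*, from neighbouring hairpins on chromosome 11, were at 34.58 and 34.23 with STAT3. miR-193b* and miR-365*, neighbours on chromosome 16, were at 34.81 and 33.77 with STAT3, and with p21 at 32.68 and 39.17. So miR-193b* was the lower with p21 and miR-365* with STAT3.

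The sequences of the starred strands were compared with those of the other arm. A RefSeq mature sequence was matched to 143 of the 155, and to 51 of the 56 that were detected. The starred name matched the 3p arm for 94 and the 5p arm for 61, and the arm made little difference to detection: 33 of 94 (35.11%) on 3p and 23 of 61 (37.7%) on 5p. The first base did differ between strands: 18.2% of stars began with U, against 64.7% of 136 other arms. A U at the first base is favoured by the binding pocket of Argonaute.

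Among the stars, 27 of 51 detected (52.9%) and 30 of 92 undetected (32.6%) began with C. Without the let-7 stars, which share their start, the shares were 46.7% and 31.1%. Median GC content was 50% in detected and undetected stars alike and 45.5% in the other arms, and 5 of 22 stars with a GC content of at most 40% were detected, against 26 of 69 between 40 and 50%. Starred arms lay within the extent of an annotated gene about as often when detected (44 of 51, 86.3%) as when not (78 of 92, 84.8%). These shares are descriptions over assays that share panels and families.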

How the data were processed

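The members were 155 assays with a starred name, from 5 purifications on both Exiqon SYBR Green panels, per the labels. Cq values, a score with 1 well per assay, were used as the authors deposited them, without normalisation. The authors also deposited linear fold ratios; per the file headers these are relative to a housekeeping gene, which is not named. For the instrument, the threshold setting and the probe sequences: not given in the sources used here.

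With Python 3.11.15 and pandas 2.3.3, detection was set at a Cq of at most 35. Differences between purifications were centred per panel on the median of miRNA assays detected on both sides. A size of 1 log2 unit (2-fold) was counted, and a side past the limit was set at 35 for bounds. The centring was checked on simulated Cq values below the detection limit. That check did not cover strands near the limit or the single-sided bounds. With 1 purification per condition no test was made and p-values are not given. Strands were named by rule: detected in at least 3 purifications, the 5 lowest Cq per purification or single-sided group, and the extremes of each comparison. miR-106b*, miR-130b*, miR-25*, the let-7 stars, the neighbouring hairpins and the strands beside the limit were added after their values were seen. Arms were assigned through later names of the same strands. Mature sequences for 12 starred names were not used here. Members and lists were chosen with earlier results of these data known. Alternatives were other limits, centrings, sizes and pairings.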

Additional observations from a re-analysis of the deposited data

How the results depend on the processing

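No paired analysis was possible because each condition had 1 purification and the panels hold different assays; leaving out a replicate was not possible for the same reason. No alternative removes the error of the pull-down, which is unknown, and near Cq 35 few template molecules are present.

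The detection limit moved nearly every count. In the order HepG2 control, p21 and STAT3, then PC-3 control and p21, starred strands detected numbered 1, 2, 1, 1 and 1 at a limit of 32, 22, 54, 91, 9 and 8 at 37, and 38, 80, 113, 19 and 20 with any Cq. Their median Cq in the same order was 30.14, 31.13, 29.71, 31.31 and 30.24 at a limit of 32. With any Cq it was 36.71, 35.87, 35.64, 37.06 and 37.36, and at 37 it was 35.77 with the HepG2 control, 35.08 with STAT3, 36.02 with the PC-3 control and 36.14 with PC-3 p21.

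Pairs with more passenger numbered 0 in HepG2 control, p21 and STAT3 and in PC-3 p21 at a limit of 32. At 37 they were 3, 10, 17 and 2, and with any Cq 3, 14, 24 and 4, with 2 in the PC-3 control. With undetected strands set at 35 they were 4, 11, 14 and 2, with 1 in the PC-3 control. Same-panel pairs gave 0 for p21 and 1 for STAT3, and subtracting UniSp6 gave 1 for each. The median of guide minus star turned to 0.99 with the HepG2 control in same-panel pairs. For p21 it was -1.70 at 37, -2.02 with any Cq, -1.72 minus UniSp6 and -2.16 with undetected at 35. For STAT3 it was -2.08 in same-panel pairs and -2.51 minus UniSp6.

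For p21 against control in HepG2, starred strands at least 2-fold higher numbered 3 at a limit of 37, 7 with any Cq, 2 without centring, 3 on UniSp3 and 4 with undetected at 35. Those 2-fold lower numbered 1 at 32, 7 at 37, 14 with any Cq and 7 on the reference assays or on U6, SNORD38B and SNORD49A. They numbered 0 without centring, on UniSp6, on UniSp3, at a 4-fold size and by the authors' deposited folds. Those seen with p21 only numbered 1, 39 and 51 at 32, at 37 and with any Cq. On UniSp3, miR-31* turned to 1.74, miR-126* to 1.30 and let-7d* to 1.37.

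For STAT3 against control, the higher count was 0 at 32, 3 at 37, 12 with any Cq, 4 on UniSp3, and 0 on the reference assays, on U6 with the SNORDs and at a 4-fold size. The lower count was 1 at 32, 4 at 37, 14 with any Cq, 3 on the reference assays, 3 on U6 with the SNORDs and 6 with undetected at 35. Those with STAT3 only numbered 0, 73 and 76 at 32, at 37 and with any Cq.

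For p21 against control in PC-3, 1 was higher with any Cq or without centring, and lower counts were 1 at 32 and 4 with any Cq. Those with p21 only numbered 0, 7 and 13 at 32, at 37 and with any Cq. For p21 against STAT3, the higher count was 0 at 32, 11 at 37, 20 with any Cq and 8 with undetected at 35. The lower count was 1 at 32, 13 at 37, 25 with any Cq, 1 without centring, 9 on the reference assays, 9 on U6 with the SNORDs, 1 on UniSp3, 16 with undetected at 35 and 0 at a 4-fold size. Those with p21 only numbered 1, 8 and 5 at 32, at 37 and with any Cq, and miR-31* turned to 0.018 on UniSp3. For the HepG2 against the PC-3 control, the higher count was 2 with any Cq and 1 without centring, on the reference assays and on U6 with the SNORDs. The lower count was 1 at 32, 3 with any Cq and 1 with undetected at 35, and strands in HepG2 only numbered 0, 20 and 30 at 32, at 37 and with any Cq.

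The cause of these changes was not tested, beyond the limit and the centring that define each alternative.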
